A study of Mus musculus with 12 samples.

Results

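The ERK feedback genes described here were Dusp4, Dusp5, Dusp6 and Dusp7, which encode dual specificity phosphatases, Spry1, Spry2 and Spry4, which encode Sprouty proteins, and Spred1 and Spred2, which encode Sprouty-related proteins. They were taken by name, as all probe sets whose single gene symbol was on this list. The list itself was chosen with earlier results of these data known. The 9 genes were covered by 10 probe sets, out of 19937 genes and 34760 probe sets measured in all. Spred2 had more than 1 probe set, and the others had 1 each. Transcript levels were measured on Affymetrix arrays in hematopoietic progenitors sorted from mouse bone marrow, in 4 groups of 3 arrays each. The LSK gate (Lin- Sca1+ c-Kit+) takes in stem cells with multipotent progenitors. The GMP gate (Lin- Sca1- c-Kit+ CD34+ FcγR+) takes in progenitors of granulocytes and macrophages. Each gate was applied to KO and to WT mice. KO mice were C57BL/6J with Mx-Cre and floxed Lamtor2 (Lamtor2f/f), and WT mice were C57BL/6J with Mx-Cre and Lamtor2 wt/wt. The strain labels write the Cre locus as Mx1-Cre wt/wt in both genotypes. Mice of both genotypes were given pIpC, which induces Mx-Cre through interferon, and cells were sorted 14 days later, so the interferon stimulus and the Cre were common to all groups. Mx-Cre acts in interferon-responsive cells and is not limited to blood progenitors. No source used here gives the ages of the mice. The RNA came from 3 KO and 3 WT mice, and which LSK and GMP arrays share a mouse is not stated, so the LSK and GMP arrays may not be independent of each other.

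The ERK pathway passes signals from growth factor and cytokine receptors through Ras, Raf and MEK to the ERK kinases. Active ERK induces the transcription of proteins that switch the pathway off again, which is why the levels of these transcripts are often read as a record of ERK output. DUSP4 and DUSP5 dephosphorylate ERK in the nucleus, DUSP6 and DUSP7 do so in the cytoplasm, Sprouty proteins act between the receptor and Ras or Raf, and SPRED proteins bring the Ras inhibitor neurofibromin to the membrane. In blood progenitors the pathway acts downstream of receptors such as KIT and the GM-CSF receptor. Lamtor2 encodes part of the LAMTOR complex, or Ragulator, on late endosomes, where its product pairs with LAMTOR3, a scaffold for MEK1 and ERK. The comparison of KO and WT cells asks how transcripts of these feedback genes stand when that anchor is lost.

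The promoters of 3 members are shown because Dusp6 and Spred2 were higher in LSK KO than in LSK WT cells, while Spry2 was not called in either population. Each run covers 250 bases before to 50 bases after the gene start in RefSeq (GRCm38.p6), printed 5′ to 3′ on the strand of the gene. The coordinates are chr10:99262981-99263280 on the plus strand for Dusp6, chr11:19924192-19924491 on the plus strand for Spred2 and chr14:105896770-105897069 on the minus strand for Spry2. Capitals mark the ETS core CGGAAG or its reverse complement.
Dusp6: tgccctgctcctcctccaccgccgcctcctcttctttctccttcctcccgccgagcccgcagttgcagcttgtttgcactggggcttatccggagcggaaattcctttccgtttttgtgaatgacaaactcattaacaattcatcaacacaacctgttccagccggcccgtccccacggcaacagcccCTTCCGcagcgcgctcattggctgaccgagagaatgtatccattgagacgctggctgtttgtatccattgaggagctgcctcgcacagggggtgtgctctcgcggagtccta
Spred2: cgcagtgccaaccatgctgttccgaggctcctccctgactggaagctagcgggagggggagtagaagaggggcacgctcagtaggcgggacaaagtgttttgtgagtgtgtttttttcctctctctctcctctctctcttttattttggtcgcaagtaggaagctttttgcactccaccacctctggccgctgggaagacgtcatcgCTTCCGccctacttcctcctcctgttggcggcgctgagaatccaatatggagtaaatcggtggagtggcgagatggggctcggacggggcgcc
Spry2: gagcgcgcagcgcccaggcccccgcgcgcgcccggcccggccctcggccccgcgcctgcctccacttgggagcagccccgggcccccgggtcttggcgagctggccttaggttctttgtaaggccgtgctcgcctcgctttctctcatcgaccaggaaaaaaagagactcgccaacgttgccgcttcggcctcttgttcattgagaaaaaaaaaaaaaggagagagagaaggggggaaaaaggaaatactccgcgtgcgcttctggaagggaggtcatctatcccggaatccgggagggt
ETS factors include the nuclear targets of ERK, and the core lay at base -62 from the gene start in Dusp6 and at base -43 in Spred2. The letters CGGAAG were absent from the Spry2 window. Shorter forms such as GGAA, which that window holds, were not counted. A RefSeq window was searched for 7 of the 9 members (Dusp5, Dusp6, Dusp7, Spry1, Spry2, Spred1 and Spred2). Dusp4 had no entry among the windows. Spry4 was left out by choice, with its chromosome, whereas the shares over all windows below leave out no chromosome. The core was in 3 of these 7, namely Dusp6, Spred1 (2 matches) and Spred2, and in 16.9% of 32851 mouse promoter windows of the same length. Spred1, though it holds the core, was like Spry2 not called in KO cells of either population. The AP-1 site TGANTCA was in 0 of the 7 and in 7.81% of all windows, the cAMP response element TGACGTCA in 0 and in 1.79%, and the E-box CACGTG in 0 and in 7.15%. The AP-1 site, the cAMP response element and the E-box each read the same on either strand, all were searched on both, and no motif contains another. The motifs were chosen after these sequences had been seen, and a match is a description of letters only.

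All values below are RMA values on the log2 scale as deposited, so a difference of 1 is a doubling, and each test is a limma contrast adjusted over the 19937 genes with a threshold of 0.05. Lamtor2, the deleted gene, read 5.11, 5.40 and 5.77 in LSK KO, against 10.39, 10.48 and 10.31 in LSK WT, a difference of -4.97 (adjusted p = 3.65e-09). It read 5.53, 5.12 and 4.95 in GMP KO, against 10.80, 10.82 and 10.61 in GMP WT, a difference of -5.54 (adjusted p = 8.74e-10). The groups lay far apart, as labelled. Of the markers fixed for the sorts, 14 of 15 stem cell and LSK markers were higher, and 12 of 13 GMP and granule markers lower, in WT LSK than in WT GMP. Of all genes, 10.3% were higher and 9.32% lower there. GMP KO replicate 1 was the array least like its own group, correlating by 0.979 on average with the others there, with an array weight of 0.19 and a root mean square deviation of 0.270 from its group mean (0.108 to 0.197 on the other arrays). No probe set's level is set against another's here, since each responds on its own scale. In RNA of sorted populations, fewer cells of a type and less RNA per cell cannot be told apart.

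Deletion of Lamtor2 went with higher Dusp4 in both populations, by 2.41-fold in LSK and 2.27-fold in GMP, and with higher Dusp6, by 1.45-fold in LSK and 2.19-fold in GMP. Spred2 was 1.44-fold higher in LSK. The other 6 members, Dusp5, Dusp7, Spry1, Spry2, Spry4 and Spred1, did not pass the threshold in either population, and no member was lower in KO. In LSK 3 of 9 members were higher, where 2.49% of all genes were higher and 1.96% lower. In GMP 2 of 9 were higher, where 5.78% of all genes were higher and 10.3% lower. The median difference of the 9 members was 0.24 in LSK and 0.25 in GMP, beside -0.0135 and 0.0146 over all genes. With arrays centred on their gene median the split of calls in GMP moved, as 35.9% of called genes were higher as deposited and 24.7% were higher after centring.

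**Figure D1:**
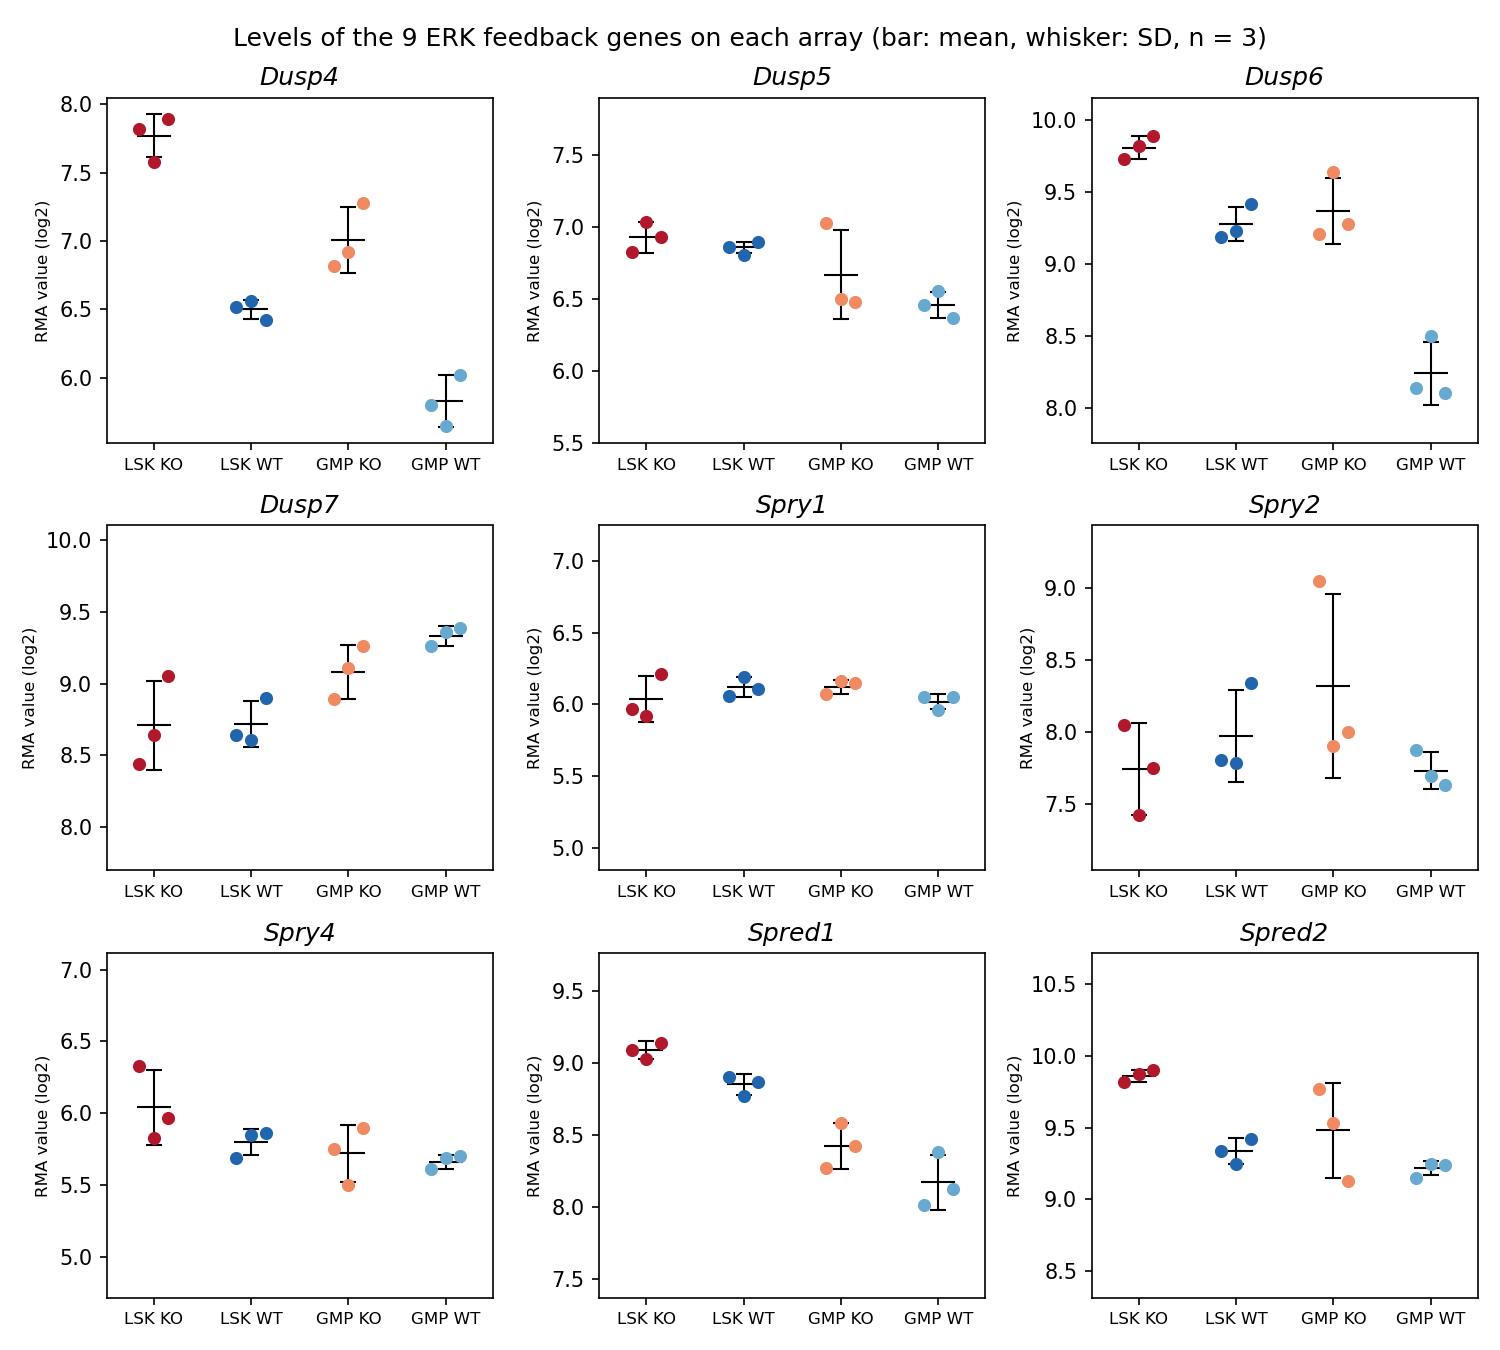
RMA value (log2) of each of the 9 genes on every array, KO left of WT within LSK and then within GMP. Points are arrays, bars the group mean and whiskers the SD of 3 arrays. Panels span the same height on the log2 axis, except that of Dusp4, which spans slightly more. Dusp4 and Dusp6 stand higher in KO than in WT in both populations, while Spry1 spans the least, 5.92 to 6.21.

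Dusp4 encodes the nuclear phosphatase also called MKP-2, which inactivates ERK and JNK. It read 7.82, 7.58 and 7.89 in LSK KO cells, against 6.52, 6.56 and 6.42 in LSK WT cells. In GMP it read 6.82, 6.92 and 7.28 in KO cells, against 5.80, 5.65 and 6.02 in WT cells. All KO arrays lay above all WT arrays in both populations, with a gap of 1.02 in LSK and 0.80 in GMP between the nearest arrays. The mean was 7.77 ± 0.16 in LSK KO and 6.50 ± 0.07 in LSK WT (SD, n = 3 each), a difference of 1.27 (SE 0.14, 95% confidence interval 0.97 to 1.56, limma adjusted p = 1.61e-04). The mean was 7.01 ± 0.24 in GMP KO and 5.83 ± 0.19 in GMP WT, a difference of 1.18 (SE 0.14, 95% confidence interval 0.89 to 1.48, limma adjusted p = 8.34e-05). Both calls held under all 20 alternative settings, with differences between 1.20 and 1.36 in LSK and between 1.05 and 1.31 in GMP. Dusp4 thus had its levels in the order LSK KO, GMP KO, LSK WT, GMP WT, and no neighbouring groups in that order overlapped. No array holds a detection call, so whether Dusp4 was read above background in GMP WT is not known here.

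Dusp6 encodes MKP-3, the cytoplasmic phosphatase that is specific for ERK. It read 9.73, 9.82 and 9.89 in LSK KO cells, against 9.19, 9.23 and 9.42 in LSK WT cells. In GMP it read 9.21, 9.64 and 9.28 in KO cells, against 8.14, 8.50 and 8.10 in WT cells. The KO arrays lay above the WT arrays in each population, by at least 0.32 in LSK and 0.71 in GMP. The LSK difference was 0.53 (SE 0.13, 95% confidence interval 0.25 to 0.82, limma adjusted p = 0.0386), from means of 9.81 ± 0.08 in KO and 9.28 ± 0.12 in WT (SD, n = 3 each). The GMP difference was 1.13 (SE 0.13, 95% confidence interval 0.84 to 1.42, limma adjusted p = 1.07e-04), from means of 9.37 ± 0.23 in KO and 8.24 ± 0.22 in WT. In order of level, LSK KO stood highest and GMP WT lowest, while GMP KO and LSK WT lay between them and overlapped. The GMP call held under all 20 alternatives, whereas the LSK call held under 13 of 20, with differences of 0.48 to 0.60. The LSK call was lost without LSK KO replicate 1, 2 or 3 (adjusted p = 0.0696, 0.107 and 0.142), without LSK WT replicate 1, 2 or 3 (0.141, 0.138 and 0.0569) and without GMP WT replicate 1 (0.0544).

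Dusp5 and Dusp7 encode the other ERK phosphatases of the nucleus and the cytoplasm, and neither passed the threshold in KO cells. Dusp5 read 6.83, 7.04 and 6.93 in LSK KO, against 6.86, 6.81 and 6.90 in LSK WT. The groups overlapped, with a difference of 0.074 (95% confidence interval -0.21 to 0.36, adjusted p = 0.884). In GMP it read 7.03, 6.50 and 6.48 in KO, against 6.46, 6.56 and 6.37 in WT. GMP KO replicate 1 alone stood above the WT arrays by more than their own spread, and the difference was 0.21 (95% confidence interval -0.077 to 0.49, adjusted p = 0.344), or 0.029 without that array. Dusp7 read 8.44, 8.64 and 9.05 in LSK KO, against 8.64, 8.61 and 8.90 in LSK WT, a difference of -0.0085 (95% confidence interval -0.33 to 0.31, adjusted p = 0.99). It read 8.89, 9.11 and 9.26 in GMP KO, against 9.26, 9.36 and 9.39 in GMP WT. The GMP groups met almost exactly at 9.26, and the difference was -0.25 (95% confidence interval -0.57 to 0.069, adjusted p = 0.304), or -0.15 without GMP KO replicate 1. The intervals of both genes leave out a change of the size seen for Dusp4, though not smaller ones.

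The Sprouty genes encode inhibitors that restrain signalling from receptor tyrosine kinases to Ras and Raf, and none of the 3 passed the threshold in KO cells. Spry1 read 5.97, 5.92 and 6.21 in LSK KO, against 6.06, 6.19 and 6.11 in LSK WT, and 6.07, 6.16 and 6.15 in GMP KO, against 6.05, 5.96 and 6.05 in GMP WT. Its levels hardly moved, with differences of -0.084 in LSK (95% confidence interval -0.29 to 0.12, adjusted p = 0.783) and 0.10 in GMP (-0.10 to 0.31, adjusted p = 0.538). Spry4 read 6.33, 5.83 and 5.97 in LSK KO, against 5.69, 5.85 and 5.86 in LSK WT, and 5.75, 5.50 and 5.90 in GMP KO, against 5.61, 5.69 and 5.70 in GMP WT. LSK KO replicate 1 was the high array, and the differences were 0.24 in LSK (-0.045 to 0.53, adjusted p = 0.426) and 0.052 in GMP (-0.24 to 0.34, adjusted p = 0.854). The files hold no detection call, so whether Spry1 and Spry4 were read above background is not known here.

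Spry2 had the widest SD of the 9 genes, 0.64 in GMP KO. It read 8.05, 7.42 and 7.75 in LSK KO, against 7.80, 7.78 and 8.34 in LSK WT, overlapping groups with a difference of -0.23 (95% confidence interval -0.80 to 0.33, adjusted p = 0.782). In GMP it read 9.05, 7.90 and 8.0 in KO, against 7.87, 7.69 and 7.63 in WT. GMP KO replicate 1, the array that stood apart from its group, was the highest of all 12, and the KO arrays cleared the WT arrays by 0.03. The GMP difference was 0.59 (SE 0.26, 95% confidence interval 0.025 to 1.16, adjusted p = 0.158), or 0.22 (adjusted p = 0.527) without that array.

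The Spred genes encode membrane-bound inhibitors of Ras that work through neurofibromin. Spred2 read 9.82, 9.87 and 9.90 in LSK KO, against 9.34, 9.25 and 9.42 in LSK WT. The groups were 0.40 apart at their nearest arrays, and the difference was 0.53 (SE 0.13, 95% confidence interval 0.24 to 0.81, limma adjusted p = 0.0395), from means of 9.86 ± 0.04 in KO and 9.34 ± 0.09 in WT (SD, n = 3 each). That call held under 9 of 20 alternatives, with differences of 0.46 to 0.57. It was lost with quantile normalisation repeated (adjusted p = 0.0944) and with a replicate block (0.0611). It was also lost when a single LSK KO array was left out (0.0854, 0.111 and 0.129 for replicates 1, 2 and 3), a single LSK WT array (0.111, 0.156 and 0.076) or a single GMP WT array (0.0602, 0.0594 and 0.0607). In GMP the same probe set read 9.77, 9.53 and 9.13 in KO, against 9.15, 9.25 and 9.24 in WT, so that 1 KO array lay below all WT arrays. The GMP difference was 0.26 (95% confidence interval -0.024 to 0.55, adjusted p = 0.219), 0.11 without GMP KO replicate 1 and 0.44 without GMP KO replicate 3 (adjusted p = 0.0127).

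The other Spred2 probe set differed from the first in GMP. It read 9.54, 9.40 and 9.43 in LSK KO, against 9.01, 9.28 and 8.90 in LSK WT, again without overlap and with a difference of 0.39. In GMP it read 8.0, 8.58 and 8.66 in KO, against 8.59, 8.71 and 8.58 in WT, a difference of -0.21, opposite in sign to that of the first probe set. With the mean of both probe sets the difference was 0.46 in LSK (adjusted p = 0.00702) and 0.026 in GMP (adjusted p = 0.887). Spred1 read 9.09, 9.03 and 9.14 in LSK KO, against 8.90, 8.77 and 8.87 in LSK WT, groups that did not overlap, by 0.12. Its LSK difference was 0.24 (SE 0.11, 95% confidence interval -0.0013 to 0.48, adjusted p = 0.318). In GMP Spred1 read 8.27, 8.58 and 8.42 in KO, against 8.01, 8.38 and 8.12 in WT, overlapping groups with a difference of 0.25 (SE 0.11, 0.0091 to 0.49, adjusted p = 0.161), which passed with quantile normalisation repeated (0.34, adjusted p = 0.0234).

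Counted by overlap alone, the KO and WT arrays were apart for 4 of 9 members in LSK (Dusp4, Dusp6, Spred1 and Spred2), where 25.5% of all genes were apart. In GMP they were apart for 5 of 9 (Dusp4, Dusp6, Dusp7, Spry1 and Spry2), where 29.6% of all genes were. For Dusp7, Spry1 and Spry2 the gap in GMP was at most 0.03, so only Dusp4 and Dusp6 were clearly apart in both populations.

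**Figure D2:**
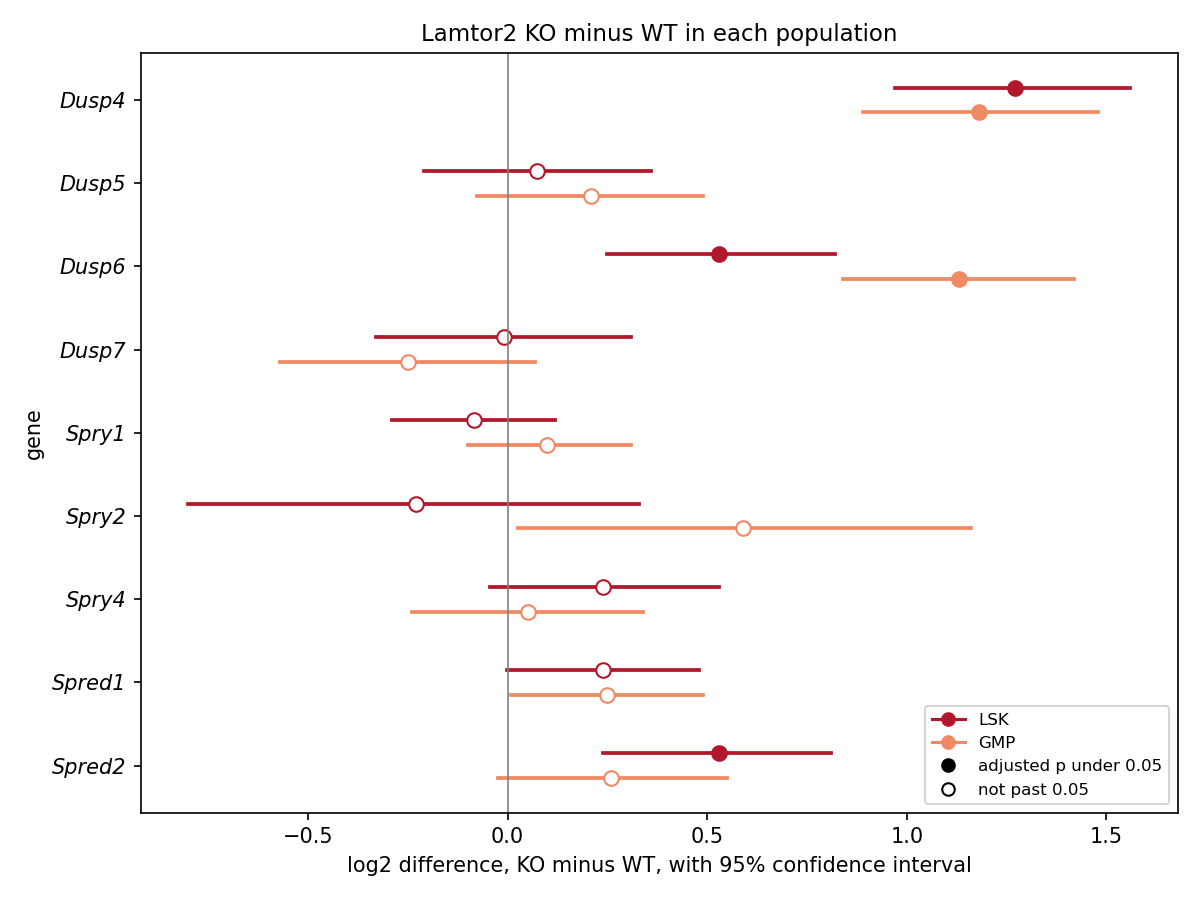
Difference between KO and WT (log2, KO minus WT) for each gene in LSK and in GMP, with 95% confidence intervals from the fit over 3 arrays a group. Filled points have an adjusted p under 0.05. Dusp4 and Dusp6 are filled in both populations and Spred2 in LSK, and the widest intervals are those of Spry2.

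Whether the KO effects differed between the populations was tested by the interaction, the KO effect in LSK minus that in GMP. No member passed the threshold by limma, and 2 had an unadjusted p under 0.05 (Dusp6 and Spry2). Over all genes 5.34% were called higher and 2.64% lower in this test, and 22.3% had an unadjusted p under 0.05. The split of calls depends on scaling, since 66.9% of called genes were higher as deposited, 54.0% with quantile normalisation repeated and 80.7% with centred arrays. For Dusp4 the interaction was 0.083 (95% confidence interval -0.33 to 0.50, adjusted p = 0.858), so the KO effects of 1.27 in LSK and 1.18 in GMP were not told apart. For Dusp6 it was -0.59 (SE 0.19, adjusted p = 0.0744), the larger effect being that in GMP. Under 4 of 19 alternatives Dusp6 passed: with quantile normalisation repeated (-0.74, adjusted p = 0.0213), with array weights (-0.63, adjusted p = 0.0377), without GMP KO replicate 1 (-0.68, adjusted p = 0.0364) and without GMP WT replicate 2 (-0.72, adjusted p = 0.046). Spry2 had an interaction of -0.82 (-1.62 to -0.025, adjusted p = 0.21), or -0.46 (adjusted p = 0.307) without GMP KO replicate 1. Spred2 had 0.26 (-0.14 to 0.67, adjusted p = 0.462), or 0.41 (adjusted p = 0.116) without that array, and passed with the mean of its probe sets (0.43, adjusted p = 0.0423). The other 5 members had interactions between -0.19 and 0.24, with adjusted p of 0.464 or more.

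Between the WT populations, Dusp4, Dusp6 and Spred1 were higher and Dusp7 lower in LSK than in GMP, 3 of 9 higher and 1 lower, where 10.3% of all genes were higher and 9.32% lower. Dusp6 had the largest difference of the members, 1.03 (SE 0.13, 95% confidence interval 0.75 to 1.32, adjusted p = 8.56e-05), a level 2.05-fold higher in LSK. Dusp4 differed by 0.67 (SE 0.14, 0.38 to 0.97, adjusted p = 0.00269) and Spred1 by 0.68 (SE 0.11, 0.44 to 0.92, adjusted p = 6.02e-04). Dusp7 ran the other way, by -0.62 (SE 0.15, -0.93 to -0.30, adjusted p = 0.00879), 1.53-fold lower in LSK. These 4 differences passed under all 20 alternatives. Dusp5 had a difference of 0.40 (0.11 to 0.68, adjusted p = 0.0511) with groups apart, 6.81 to 6.90 in LSK WT and 6.37 to 6.56 in GMP WT. It passed under 6 of 20 alternatives, among them without GMP KO replicate 1, 2 or 3 (adjusted p = 0.0032, 0.0417 and 0.0422). Spry1, Spry2, Spry4 and Spred2 had differences of 0.10, 0.24, 0.14 and 0.12 and did not pass, with adjusted p of 0.555 or more. With the mean of both Spred2 probe sets, which differed by 0.12 and 0.44, the Spred2 difference was 0.28 and passed (adjusted p = 0.0312). Centring the arrays moved the median of all genes to -0.12, against -0.029 as deposited, and the share of called genes that were higher to 34.3%, against 52.4%. The 4 calls kept their direction under centring.

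Between the KO populations, 3 of 9 members were higher in LSK and 0 lower, where 10.1% of all genes were higher and 5.79% lower. Spred1 differed by 0.67 (SE 0.11, 95% confidence interval 0.43 to 0.91, adjusted p = 0.00145) and Dusp4 by 0.76 (SE 0.14, 0.46 to 1.05, adjusted p = 0.00232), each past the threshold under all 20 alternatives. Dusp6 differed by 0.44 (SE 0.13, 0.15 to 0.73, adjusted p = 0.0409) and passed under 8 of 20. Its call was lost without LSK KO replicate 1, 2 or 3 (adjusted p = 0.0653, 0.086 and 0.143), LSK WT replicate 1 or 2 (0.0526 and 0.0555), GMP KO replicate 1 or 3 (0.113 and 0.0973) or GMP WT replicate 1 (0.0528). It was also lost with quantile normalisation repeated (0.0766), arrays centred (0.0523), array weights (0.0645) and the 2 groups fitted alone (0.10). Dusp7 had a difference of -0.37 (adjusted p = 0.103), which passed without LSK KO replicate 3 (-0.54, adjusted p = 0.0276). Spred2 had 0.39 (adjusted p = 0.0652) and Dusp5 0.26 (adjusted p = 0.19), and both passed without GMP KO replicate 1 (0.54, adjusted p = 0.00691, and 0.44, adjusted p = 0.00715). With the mean of both Spred2 probe sets, which differed by 0.39 and 1.04, the Spred2 difference was 0.71 and passed (adjusted p = 1.17e-04). Spry1 and Spry4 had differences of -0.087 and 0.33 and did not pass. Spry2 had -0.58 (adjusted p = 0.146), or -0.22 (adjusted p = 0.511) without GMP KO replicate 1. These comparisons share arrays with the KO against WT comparisons, so their values stand side by side and do not support each other.

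**Figure D3:**
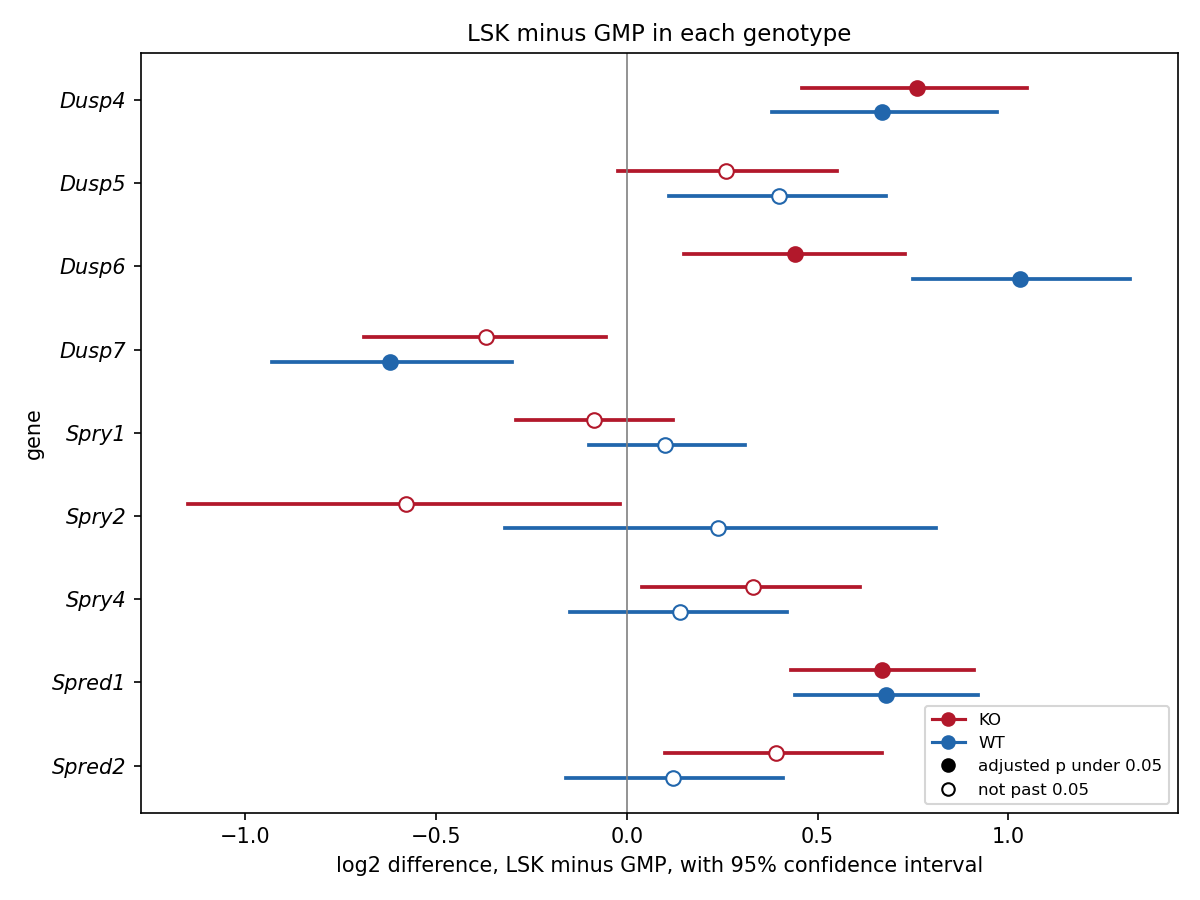
Difference between LSK and GMP (log2, LSK minus GMP) for each gene in KO and in WT mice, with 95% confidence intervals from the fit over 3 arrays a group. Filled points have an adjusted p under 0.05. Dusp4, Dusp6 and Spred1 are filled in both genotypes, and Dusp7 lies below 0 in both but is filled in WT.

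Across the 12 arrays several members moved together, as a description over arrays that share their 4 groups. The Pearson correlation of Dusp4 with Dusp6 was 0.87 and with Spred2 0.75, and that of Dusp6 with Spred2 was 0.73. Members not called in KO cells correlated with these about as closely, with 0.85 for Spred1 and Dusp6, 0.73 for Dusp5 and Spred2, 0.68 for Dusp5 and Dusp6, and 0.66 for Spry4 and Dusp4. Dusp7 ran against them, with -0.64 for Dusp6 and -0.73 for Spred1. Spry1 and Spry2 followed none, with correlations between -0.21 and 0.31. Among all other genes, Dusp4 was most like Havcr2 (r = 0.948), Per1 (0.945) and Ehd3 (0.943), and Dusp6 most like Plek (0.978), Pcp4l1 (0.977) and Mylip (0.975). Spred2 was most like Pttg1ip (0.962), Crebzf (0.948) and Pik3ip1 (0.924), and Spred1 most like Nefh (0.985), Zfp1 (0.981) and Coro2a (0.98). For Dusp5 these were Grasp (0.971), Ube2cbp (0.935) and Ccl5 (0.931), and for Dusp7 Sar1b (0.934), Abcb10 (0.925) and Acad8 (0.908). For Spry2 they were Onecut1 (0.936), Olfr1057 (0.927) and Prf1 (0.912), for Spry1 Frmd7 (0.884), Pgf (0.801) and Vmn2r74 (0.80), and for Spry4 Klri2 (0.881), Fbxo16 (0.866) and 4933431E20Rik (0.863).

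The pathway around the members was read through lists of related genes. Beside the list counts here and in the paragraphs below, 2.49% of all genes were higher and 1.96% lower in LSK KO. In GMP KO 5.78% of all genes were higher and 10.3% lower. A count of 1 in a short list does not stand out from these shares. Among 10 other ERK and MAPK phosphatases, 0 were called in LSK, with a median of -0.05, while in GMP 3 were higher and 1 lower, with a median of 0.17. Dusp1, which encodes MKP-1, read 10.36, 9.56 and 10.54 in GMP KO, against 7.51, 7.74 and 8.07 in GMP WT, a difference of 2.38 (SE 0.40, adjusted p = 0.00135). Dusp16, whose product acts mainly on JNK and p38, had 0.55 (SE 0.11, adjusted p = 0.00424) and Dusp2 0.43 (adjusted p = 0.0492, past the threshold in 9 of 20 alternatives). The tyrosine phosphatase gene Ptpn7 was lower in GMP KO by -0.56 (adjusted p = 0.0124, past the threshold in 17 of 20 alternatives). The settings that lost that call included leaving out GMP WT replicate 2. Of the remaining Sprouty and Spred genes, Spry3 and Spred3, neither was called in KO cells. Spred3 was higher in LSK than in GMP by 0.79 in WT (adjusted p = 0.00157) and by 0.60 in KO (adjusted p = 0.0153), the same direction as Spred1. Of 12 measured partners of Sprouty and Spred proteins, 0 were higher and 1 lower in LSK KO, with a median of -0.01, and 1 was higher and 1 lower in GMP KO, with a median of -0.10. The receptor adaptor Gab1 read 6.70, 6.84 and 7.17 in LSK KO, against 7.47, 7.81 and 7.59 in LSK WT, a difference of -0.72 (adjusted p = 0.00743). Nf1, which encodes neurofibromin, the protein that SPRED proteins recruit, was higher in GMP KO by 0.34 (adjusted p = 0.0184, in 15 of 20 alternatives). The settings that lost the Nf1 call included leaving out GMP KO replicate 3, GMP WT replicate 2 or GMP WT replicate 3. The ubiquitin ligase gene Nedd4 was lower in GMP KO by -0.42 (adjusted p = 0.0304, in 13 of 20 alternatives). The settings that lost the Nedd4 call included leaving out GMP KO replicate 1 or 3 or a single GMP WT array.

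Of 30 genes of the Ras to ERK core, 23 were measured, and the others were not analysed here. In LSK KO 1 was higher and 1 lower (median -0.05). Sos2, a Ras exchange factor, had a difference of 0.51 (adjusted p = 0.0437, past the threshold in 9 of 20 alternatives), and Rasgrp2, an exchange factor for Rap1, one of -0.47 (adjusted p = 0.0221, in 16 of 20). In GMP KO 1 was higher and 5 lower (median -0.06). Map2k1, which encodes MEK1, read 7.35, 8.13 and 8.18 in GMP KO, against 8.64, 8.84 and 8.62 in GMP WT, a difference of -0.82 (SE 0.18, adjusted p = 0.00851), or -0.55 without GMP KO replicate 1, still past the threshold. Ptpn11, which encodes the phosphatase SHP2, differed by -0.65 (adjusted p = 8.18e-04), Rasgrp2 by -0.51 (adjusted p = 0.005) and the scaffold Iqgap1 by 0.47 (adjusted p = 0.00343). Thus in GMP KO cells the phosphatase transcripts Dusp4 and Dusp6 were higher while transcripts of MEK1 and SHP2 were lower.

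Of 40 other ERK target genes, 39 were measured. In GMP KO 14 were higher and 2 lower, with a median of 0.32, and without GMP WT replicate 2 the count of higher genes was 9. Emp1, a membrane protein gene, read 9.18, 8.73 and 9.05 in GMP KO, against 5.63, 5.81 and 6.07 in GMP WT, a difference of 3.15 (SE 0.15, adjusted p = 5.88e-08). The immediate early genes Egr1 (2.73, SE 0.39, adjusted p = 4.10e-04), Ier3 (2.02, SE 0.17, adjusted p = 5.32e-06) and Atf3 (1.89, SE 0.25, adjusted p = 2.49e-04) were also higher. In LSK KO 2 of the 39 were higher and 0 lower, with a median of 0.24. These were Myc (0.44, adjusted p = 0.016) and Fos (1.63, adjusted p = 0.0405), and with an array left out the count was 0 to 5. It was 0 when LSK KO replicate 3 or either replicate 2 or 3 of LSK WT was left out, and 5 when GMP KO replicate 3 was. Fos read 7.80, 8.33 and 10 in LSK KO, against 7.09, 6.99 and 7.16 in LSK WT, and Egr1 read 7.95, 7.64 and 9.71 in LSK KO, against 7.23, 7.42 and 7.71 in LSK WT. LSK KO replicate 3 was the highest LSK array for both, as it was for Dusp1 (9.34, 9.95 and 11.41 in LSK KO, against 9.42, 9.34 and 9.70 in LSK WT). Dusp4 was also highest on that array (7.82, 7.58 and 7.89 in LSK KO), as were Dusp6 and Spred2. Without LSK KO replicate 3 the LSK difference of Dusp4 was 1.20 (adjusted p = 0.00146). The interaction was past the threshold for Emp1 (-2.79, adjusted p = 1.42e-04) and Ier3 (-1.72, adjusted p = 0.0015), with the larger effect in GMP. It was also past for Klf4 (0.80, adjusted p = 0.0258, in 14 of 19 alternatives), a transcription factor gene that was lower in GMP KO, with a mean of 6.39 in GMP KO and 7.19 in GMP WT, and stood at 6.04 in both LSK groups. Among 20 measured receptors that signal to ERK, 5 were higher and 2 lower in LSK KO (median 0.17), and 7 higher and 3 lower in GMP KO (median 0.04). The count higher in LSK was 2 or 3 when an LSK KO, LSK WT or GMP WT array was left out and 5 to 7 when a GMP KO array was, and the count lower in GMP was 1 when a GMP WT array was left out. In LSK the call with the smallest p was lower in KO, that of the angiopoietin receptor gene Tek (-1.35, adjusted p = 2.61e-05), and the related Tie1 was lower too (-0.99, adjusted p = 0.00103). In GMP it was that of Met, the receptor gene for hepatocyte growth factor, which was lower in KO (-1.53, adjusted p = 1.27e-05), while Flt3 (1.26, adjusted p = 5.13e-05) and Mertk (2.51, adjusted p = 2.36e-04) were higher. Tek and Flt3 were also on the list of stem cell and LSK markers, Flt3 on that of dendritic cell markers and Mertk on that of macrophage markers. Csf2rb, the receptor chain common to several hematopoietic cytokines, GM-CSF among them, differed by 1.74 in LSK (adjusted p = 1.02e-04), and the IL-3 receptor chain Csf2rb2 by 1.43 in LSK (adjusted p = 0.00103) and 1.33 in GMP (adjusted p = 5.93e-04).

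Markers of several other cell types, though not of all, differed between KO and WT. Of all genes, 2.49% were higher and 1.96% lower in LSK KO, and 5.78% were higher and 10.3% lower in GMP KO. Of 19 macrophage markers 9 were higher and 0 lower in LSK KO, and 13 were higher and 0 lower in GMP KO. Their mean level was 6.95, 7.86 and 7.23 in LSK KO, against 6.03, 6.07 and 5.84 in LSK WT. It was 8.38, 8.59 and 8.85 in GMP KO, against 6.31, 6.23 and 6.22 in GMP WT. All KO arrays lay above all WT arrays. Within LSK KO, replicate 2 had the highest macrophage mean and the lowest Dusp4. The GMP KO arrays had their macrophage means in the order of their Dusp4 values. Of 12 monocyte markers 4 were higher and 0 lower in LSK KO, with means of 7.72 to 8.08 in KO and 6.67 to 7.29 in WT. In GMP KO 3 were higher and 5 lower, with means of 8.77 to 9.19 in KO and 8.88 to 8.99 in WT. Of 9 mast cell and basophil markers 4 were higher in LSK KO, with means of 7.56 to 8.47 in KO and 6.24 to 6.81 in WT. In GMP KO 3 of them were higher, with means of 8.54 to 9.77 in KO and 7.87 to 8.35 in WT. Of 13 GMP and granule markers 7 were higher in LSK KO, with means of 9.14 to 9.67 in KO and 7.91 to 8.62 in WT. In GMP KO 1 of these markers was higher and 2 were lower, with means of 10.63 to 10.79 in KO and 10.67 to 10.78 in WT. Of 15 stem cell and LSK markers 0 were higher and 3 lower in LSK KO, with means of 8.49 to 8.70 in KO and 8.90 to 8.97 in WT. In GMP KO 3 of them were higher and 1 lower, with means of 7.36 to 7.58 in KO and 7.21 to 7.38 in WT. Of 6 megakaryocyte and platelet markers 3 were lower in LSK KO, with means of 6.26 to 6.56 in KO and 7.01 to 7.71 in WT, and 1 was higher and 1 lower in GMP KO. Of 6 erythroid markers 2 were lower in each population, with means of 7.87 to 8.39 in LSK KO and 8.24 to 8.82 in LSK WT, and 6.44 to 6.73 in GMP KO and 6.98 to 7.28 in GMP WT. Of 10 dendritic cell and MHC class II markers 3 were lower in LSK KO, with means of 7.07 to 7.37 in KO and 7.47 to 7.55 in WT. In GMP KO 2 of them were higher and 4 lower, with means of 6.25 to 6.48 in KO and 6.44 to 6.78 in WT. Of 7 B cell markers 0 were called in LSK KO and 2 were lower in GMP KO, with means of 6.01 to 6.08 in GMP KO and 6.33 to 6.48 in GMP WT. Of 8 T and NK cell markers 0 were called in LSK KO, and 1 was higher and 1 lower in GMP KO. Of 10 neutrophil maturation markers 0 were called by limma in either population, with medians of -0.08 in LSK and -0.31 in GMP. The part of these markers in the values of Dusp4, Dusp6 and Spred2 was not tested.

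**Figure D4:**
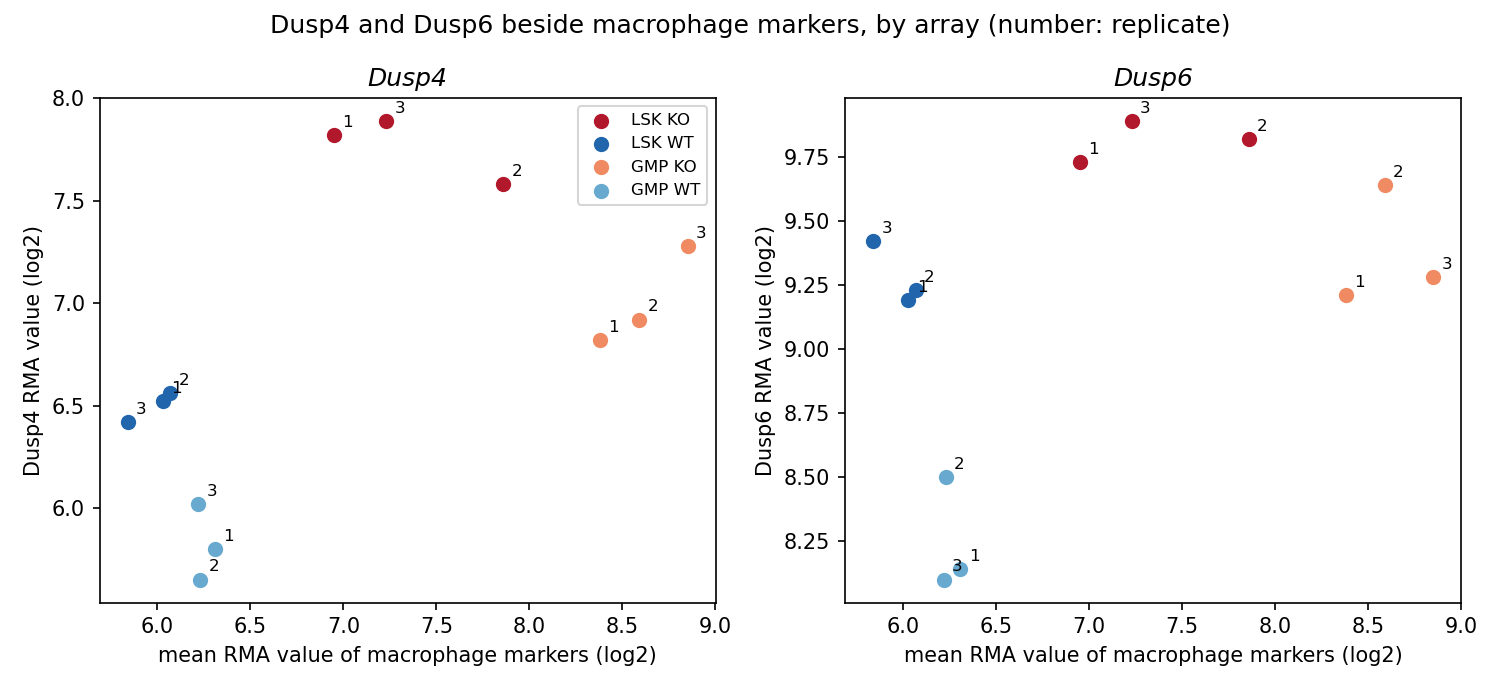
RMA value of Dusp4 and of Dusp6 (log2) against the mean RMA value of 19 macrophage markers (log2) on each of the 12 arrays, numbered by replicate within each genotype of LSK and of GMP. The KO arrays lie to the right of and above the WT arrays of their population in both panels. GMP KO has the highest marker means, and LSK KO the highest Dusp4 and Dusp6.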

How the data were processed

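The files hold log2 intensities from 12 Affymetrix arrays that the authors processed with RMA (background correction, quantile normalisation and probe set summaries), per the submitters' processing notes. No source used here gives the software or genome build. RNA was amplified before labelling (NuGEN WT-Ovation Pico), per the labels' protocols. Array medians were 5.96 to 6.18, and the number of arrays limits the precision. Of 34760 probe sets, 21640 had a single symbol and gave 19937 genes. For a gene with several, the probe set with the highest mean was used.

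The 4 groups were fitted together with limma 3.58.1 in R 4.3.3 (residual df 8, prior df 5.16). Tests were two-sided and p-values adjusted by Benjamini-Hochberg over all genes, with a threshold of 0.05. The fit was tested on simulated data. Named were all 9 members, Lamtor2, at most 4 called genes per list and comparison by p, and the 3 genes most correlated with each member. Egr1 and Dusp1 in LSK were added after their values were seen. The members, lists and tests were chosen with earlier results of these data known. Alternatives changed scaling, filter, probe sets, variance model, weights, groups fitted, block and arrays.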

Additional observations from a re-analysis of the deposited data

How the results depend on the processing

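Each result was recomputed under 20 alternatives (19 for the interaction). The 3 arrays a group limit precision, and no array holds a detection call. Genes called in LSK KO numbered 886, but 1734 with array weights, 1390 with the 2 groups fitted alone and 455 to 1672 with an array left out. In GMP KO they numbered 3212, but 1778 with the 2 groups alone and 1853 to 3628 with an array left out. For the interaction they numbered 1591, and 800 to 2006 with an array left out. Between KO LSK and KO GMP they numbered 3160, but 1327 with the 2 groups alone and 1667 to 4044 with an array left out. Members called in LSK KO numbered 1 to 3 with an array left out. The interaction called 0 members, but 1 with quantile normalisation repeated (Dusp6), 1 with the mean of probe sets (Spred2), 1 with array weights (Dusp6), and 0 to 1 with an array left out. The cause was not tested. Leaving an array out changed both the number of arrays and which arrays were fitted, and these were not separated.

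The direction turned only for differences near 0 that passed no threshold. Dusp7 in LSK was 0.017 with arrays centred, and -0.18 to 0.12 with an array left out. Spry4 in GMP was -0.02 with quantile normalisation repeated, -0.018 with arrays centred, and -0.04 to 0.16 with an array left out. The interaction of Spred1 was 0.085 with arrays centred, and -0.11 to 0.07 with an array left out. The interaction of Dusp4 was -0.037 with array weights, and -0.016 to 0.22 with an array left out. The interaction of Dusp5 was -0.23 to 0.045 with an array left out.

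With the replicate number as a replicate block, 2 members were called in LSK KO, Spred2 being lost (0.53, adjusted p = 0.0611), and Dusp7 passed between KO LSK and KO GMP (-0.37, adjusted p = 0.0384). No other call of a member changed. The number need not pair the arrays, since the deviations of same-numbered KO and WT arrays correlated by 0.06, 0.04 and 0.13 in LSK and 0.07, 0.28 and -0.15 in GMP, and those of LSK and GMP arrays by 0.00, -0.18 and 0.15 in KO and 0.18, -0.03 and 0.08 in WT.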
